A study of Homo sapiens with 4 samples.

Results

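Protein kinase A is the kinase that cyclic AMP switches on, and 9 of its genes were described here: the inhibitors PKIA, PKIB and PKIG, the regulatory subunits PRKAR1A, PRKAR1B, PRKAR2A and PRKAR2B, and the catalytic subunits PRKACA and PRKACB. Every probe set that the platform's annotation assigned to one of these genes was taken, which gave 22 of the 54675 probe sets on the array, and 0 of the 22 named a further gene. They are 9 of the 19775 genes that the array names singly. The cells were SW620, a human line grown from a lymph node deposit of a colon cancer. Per the labels they had been sorted with magnetic beads into cells that carry the surface protein CD133 (CD133+) and cells that lack it (CD133-), grown from single cells into clones, and sorted for CD133 once more before total RNA was taken. All cells were grown untreated in the same serum-containing medium. The CD133+ clone CPC1 and the CD133- clone CNC1 were each measured on 2 Affymetrix arrays, so that the sorted marker and the clone cannot be told apart. Separate cultures behind the arrays of 1 clone are not mentioned in the labels, and p-values then measure only array-to-array spread, which may be technical.

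In the absence of cyclic AMP, a dimer of regulatory subunits holds a pair of catalytic subunits inactive. Cyclic AMP binds the regulatory subunits and frees the catalytic subunits, which phosphorylate enzymes, channels and, in the nucleus, the transcription factor CREB1. The protein kinase inhibitors are small proteins that bind free catalytic subunits as a pseudosubstrate and carry them out of the nucleus. In the intestinal epithelium this pathway is best known for driving chloride and fluid secretion through the CFTR channel.

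The comparison asked which genes differ between CD133+ and CD133- cells. The set was drawn up with the CD133+ against CD133- results of these arrays known, PKIB among the largest differences, so the members' differences are given as a description without p-values. Values are log2 signals after quantile normalization, differences are CD133+ minus CD133-, and errors are a standard deviation (SD) over 2 arrays or a standard error (SE) from limma, a linear-model fit over all probe sets. PROM1, which encodes CD133, had log2 signals of 8.46 and 8.73 in the cells labelled CD133+, against 3.31 and 3.35 in those labelled CD133-. Deposited array medians ran from 4.45 to 4.60, and the correlation of replicates over genes was 0.992 for each clone. For ACTB, whose 3' minus 5' control signal rises as RNA shortens, CD133+ replicate 2 stood apart at 1.92 against 0.71 to 1.18 elsewhere. The same measure of GAPDH did not set that array apart, at 0.090 beside 0.097 in CD133+ replicate 1, and was 0.017 and 0.026 in CD133- cells. CD133- replicate 1 had an upper quartile of 6.91, above the 6.61 to 6.71 of the rest. All 10 colon epithelial markers lay above the level under which genes were left out. So did 5 of 7 leukocyte, 7 of 7 fibroblast and 3 of 5 endothelial markers. The colon markers had a mean log2 signal of 9.82 to 9.90 on every array, while the markers of leukocytes, fibroblasts and endothelium averaged 4.15 to 5.39. Single genes overlapped, with the colon markers GPA33 (5.16), CDX1 (6.20) and CDX2 (6.22) below the fibroblast marker COL1A1 (6.98). Of the 25 markers tested 0 differed at an adjusted p under 0.05 in limma, and 4 had an unadjusted p under 0.05.

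Across the 22 probe sets, 11 were higher and 11 lower in CD133+ cells, where 52.7% of all probe sets were higher, with differences from -2.05 to 0.76 and a median of -0.0058, beside a median of 0.015 over all 54613 probe sets that are not array controls. The arrays of the 2 clones did not overlap for 11 of the 22, or 50% of them, against 43.9% of all probe sets. Only 1 of the 22 differed by at least 2-fold, against 0.857% of all probe sets. The same probe set, of PKIB, was the only one at an adjusted p under 0.05 over all probe sets, a level that 0.181% of all probe sets reached. By role, 5 of 5 inhibitor probe sets, 5 of 12 regulatory and 1 of 5 catalytic probe sets had clones that did not overlap. Since the set was chosen with this contrast known, these shares are not evidence about the pathway.

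**Figure D1:**
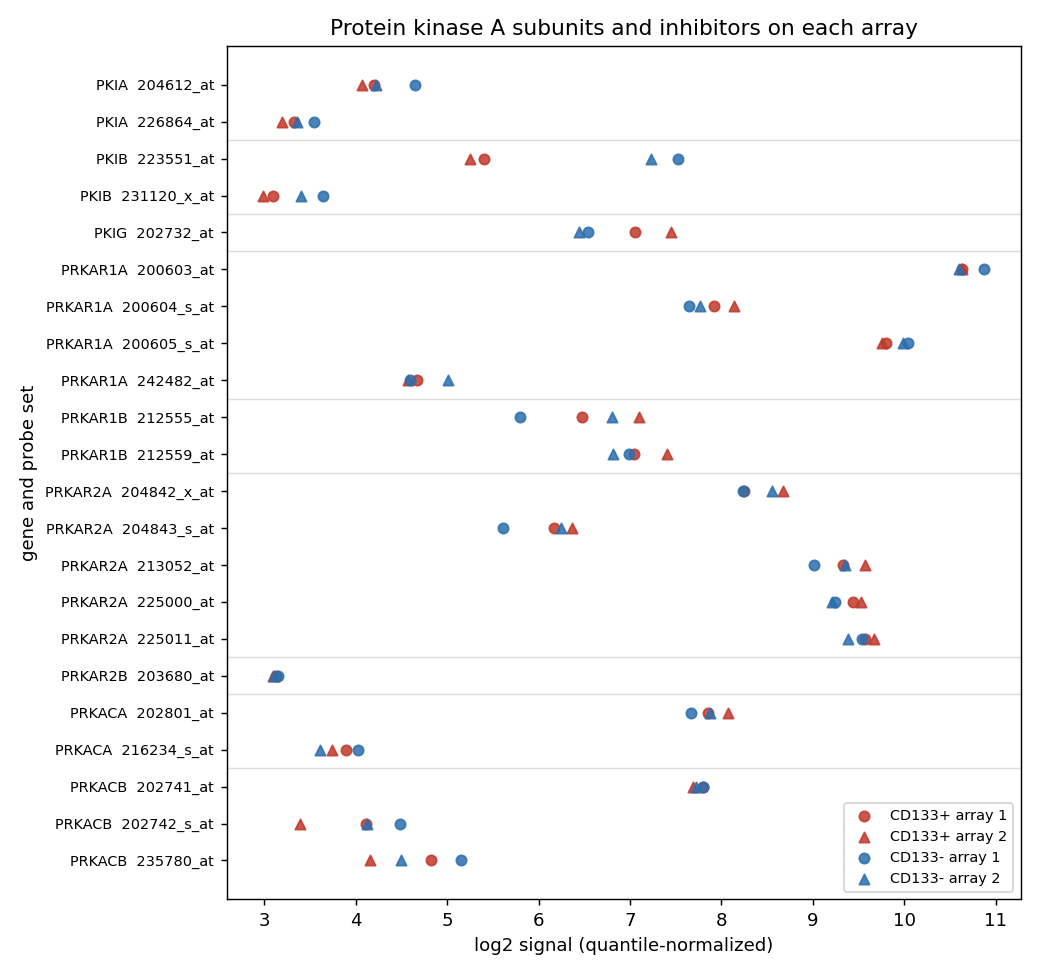
Log2 signal (x axis, quantile-normalized) of each of the 22 probe sets (rows, grouped by gene) on the 4 arrays, with circles for replicate 1 and triangles for replicate 2. The CD133+ (red) and CD133- (blue) arrays lie 1.83 apart for PKIB probe set 223551_at and within 0.51 of each other or overlapping for every other probe set.

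PKIB, the beta form of the inhibitor, stood lowest in CD133+ cells relative to CD133- cells. Its probe set 223551_at had log2 signals of 5.40 and 5.25 in CD133+ cells, against 7.53 and 7.23 in CD133- cells. The means were 5.32 ± 0.11 (SD, n = 2) and 7.38 ± 0.21 (SD, n = 2). They differed by -2.05 (SE 0.20), or 4.15-fold. Both CD133+ arrays lay 1.83 or more below both CD133- arrays, many times the distance between replicate arrays. Of the 54613 probe sets, 8 had a more negative difference. The second probe set, 231120_x_at, had 3.09 and 2.98 in CD133+ and 3.64 and 3.40 in CD133- cells, a difference of -0.48 (SE 0.13). Its arrays also did not overlap, as for 43.9% of all probe sets. Its mean signal lay in the lowest 14% of all probe sets, a level at which a difference is hard to read. Why the 2 probe sets differ in size was not tested. The suffix of this probe set marks probes that may bind more than one transcript family. Neither PKIB difference changed sign in the values as deposited, with arrays centred on their medians or without any one array, where 223551_at ran from -2.21 to -1.91.

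RefSeq (GRCh38.p14) places PKIB on the plus strand of chromosome 6 and its table lists 3 transcription starts. The 250 bases before each start are printed because PKIB carries the largest difference of the set, with capitals for the half-site TGACG or its reverse complement CGTCA, the core of the element that CREB binds. The arrays do not show which start these cells use.
PKIB start 1, chr6:122471671-122471920: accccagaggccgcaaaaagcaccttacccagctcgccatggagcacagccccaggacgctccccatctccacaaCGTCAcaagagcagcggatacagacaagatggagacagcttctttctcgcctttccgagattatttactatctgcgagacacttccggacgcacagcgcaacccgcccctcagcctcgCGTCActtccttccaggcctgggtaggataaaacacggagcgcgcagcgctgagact
PKIB start 2, chr6:122610155-122610404: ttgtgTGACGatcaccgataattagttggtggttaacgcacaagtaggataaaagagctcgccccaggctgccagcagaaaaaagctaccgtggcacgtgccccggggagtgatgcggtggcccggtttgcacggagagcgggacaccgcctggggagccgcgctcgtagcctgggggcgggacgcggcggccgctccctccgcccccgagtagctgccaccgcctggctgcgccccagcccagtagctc
PKIB start 3, chr6:122652479-122652728: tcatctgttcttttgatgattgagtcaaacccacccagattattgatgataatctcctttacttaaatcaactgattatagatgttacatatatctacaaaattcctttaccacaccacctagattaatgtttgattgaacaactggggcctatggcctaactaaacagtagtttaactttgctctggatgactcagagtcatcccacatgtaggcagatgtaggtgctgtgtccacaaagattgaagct
The first window held 2 half-sites, whose first bases lie 175 and 57 bases before the start, and the second held 1, at 245 bases. The third window held none of these letters. The full palindrome TGACGTCA was in 0 of the 3 windows. On both strands, half-sites occurred in 21.2% of the 35116 windows of the table and TGACGTCA in 1.65%, so a half-site is common, and a match describes letters and not a bound site.

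PKIG, the gamma form of the inhibitor, differed the other way. Its 1 probe set, 202732_at, had 7.05 and 7.45 in CD133+ and 6.54 and 6.44 in CD133- cells, or 7.25 ± 0.28 (SD, n = 2) against 6.49 ± 0.073 (SD, n = 2). The difference was 0.76 (SE 0.20), or 1.69-fold, and both CD133+ arrays lay above both CD133- arrays by at least 0.51. It was 0.60 as deposited and 0.53 with centred arrays, and it ran from 0.56 to 0.96 when each array was left out in turn. PKIB and PKIG thus had opposite differences, each larger than the distance between its replicate arrays.

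PKIA, the alpha form, was lower in CD133+ cells on both of its probe sets, by less. Probe set 204612_at had 4.20 and 4.07 in CD133+ against 4.65 and 4.22 in CD133- cells, a difference of -0.30 (SE 0.22), and the clones were separated by only 0.020. Probe set 226864_at had 3.32 and 3.19 against 3.54 and 3.36, a difference of -0.19 (SE 0.13), with a separation of 0.037. For both, the distance between the clones was smaller than the distance between the CD133- arrays. Their differences ran from -0.51 to -0.086 and from -0.28 to -0.10 without 1 array at a time.

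**Figure D2:**
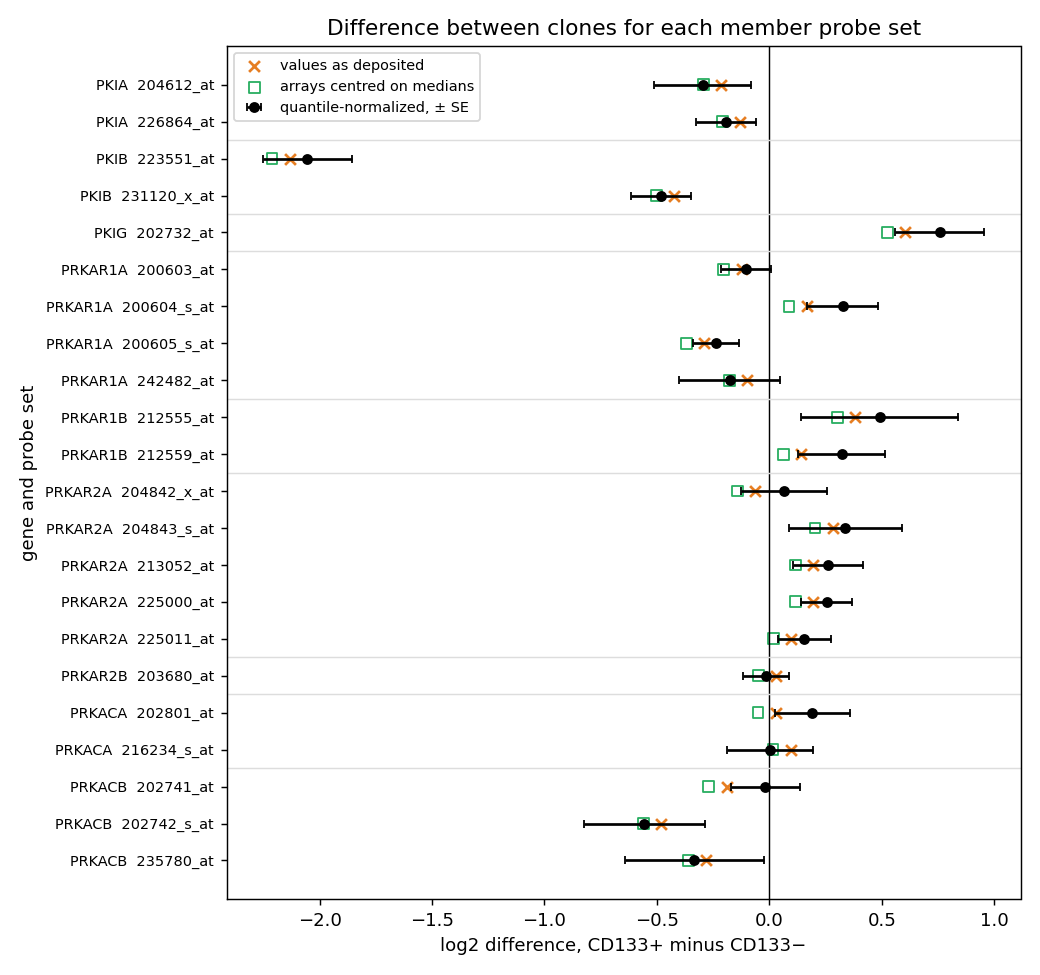
Log2 difference, CD133+ minus CD133- (x axis), of each probe set (rows) after quantile normalization (black, bars ± SE from limma), in the values as deposited (crosses) and with arrays centred on their medians (squares). PKIB 223551_at lies near -2.05 and PKIG 202732_at at 0.76, while PRKAR2A 204842_x_at, PRKAR2B 203680_at and PRKACA 202801_at change sign with the scaling.

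The type I regulatory subunit PRKAR1A, the main brake on the kinase in most tissues and a tumour suppressor gene in Carney complex, had 4 probe sets that did not point one way. Probe set 200603_at had 10.63 and 10.63 in CD133+ and 10.88 and 10.60 in CD133- cells, a difference of -0.11 (SE 0.11), and its clones overlapped. Probe set 200605_s_at had 9.80 and 9.75 against 10.03 and 9.99, a difference of -0.24 (SE 0.10). Probe set 200604_s_at had 7.92 and 8.14 against 7.65 and 7.76, a difference of 0.33 (SE 0.16). The latter pair were separated by 0.19 and 0.16 in opposite directions, so the gene has no single direction on this array. The positive one shrank to 0.17 as deposited and 0.088 with centred arrays, and the negative one was -0.29 and -0.37 there. The fourth, 242482_at, had 4.67 and 4.57 against 4.59 and 5.01, with clones that overlapped.

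Of 25 windows that the RefSeq table holds for 8 of the 9 genes, 1 contained the full CREB element, before the third of 5 PRKAR1A starts on the plus strand of chromosome 17, and it is printed for that reason, with the element in capitals.
PRKAR1A start 3, chr17:68512180-68512429: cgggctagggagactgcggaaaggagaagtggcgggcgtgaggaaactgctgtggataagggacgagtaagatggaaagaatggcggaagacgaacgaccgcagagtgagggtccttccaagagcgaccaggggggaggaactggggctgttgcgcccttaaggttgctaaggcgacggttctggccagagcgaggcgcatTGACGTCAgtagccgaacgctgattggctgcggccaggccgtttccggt
The element TGACGTCA begins 49 bases before that start. Half-sites were in 7 of the 25 windows, or 28.0%, beside the 21.2% of all windows given above. They were in at least 1 window of 5 of the 8 genes: PKIB, PRKAR1A, PRKAR1B, PRKACA and PRKACB. Of all 27305 genes with a window, 24.9% had one. A gene with more windows has more chances of a match, and these 8 genes had 25 windows, against 35116 for the 27305 genes. Windows of neighbouring starts overlap and are not independent.

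PRKAR1B, the second type I regulatory subunit and chiefly a neuronal form, was higher in CD133+ cells on both probe sets, with a wide spread. Probe set 212559_at had 7.04 and 7.41 in CD133+ and 6.99 and 6.82 in CD133- cells, a difference of 0.32 (SE 0.19) with clones 0.049 apart. Probe set 212555_at had 6.48 and 7.10 against 5.79 and 6.80, a difference of 0.49 (SE 0.35), with clones that overlapped. Replicate arrays of the CD133- clone were 1.01 apart for this probe set, farther than the means of the clones. Without CD133- replicate 1 its difference was -0.014, and without CD133- replicate 2 it was 0.99, so that value rests on CD133- replicate 1. The difference of 212559_at was 0.14 as deposited and 0.064 with centred arrays.

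PRKAR2A, the widely expressed type II regulatory subunit that anchoring proteins tether to membranes and the cytoskeleton, had 5 probe sets, all with a positive difference after quantile normalization. They ran from 0.067 for 204842_x_at, which turned to -0.062 as deposited and -0.14 with centred arrays, to 0.34 for 204843_s_at. Only 225000_at, with 9.44 and 9.52 in CD133+ against 9.24 and 9.21 in CD133- cells, and 225011_at, with 9.57 and 9.67 against 9.54 and 9.39, had clones that did not overlap. Their differences were 0.26 (SE 0.11) and 0.16 (SE 0.12). With centred arrays these fell to 0.11 and 0.017, where the median over all genes moved from 0.058 to -0.051. PRKAR2B, the second type II regulatory subunit, was at 3.12 and 3.10 in CD133+ and 3.15 and 3.10 in CD133- cells. Its 1 probe set lay in the lowest 6.93% of all probe sets, and no difference could be read at that level.

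The catalytic subunits had differences from -0.56 to 0.19, with the clones not overlapping on 1 of 5 probe sets. PRKACA, the main catalytic subunit in most tissues, had 7.85 and 8.08 in CD133+ and 7.67 and 7.87 in CD133- cells on probe set 202801_at, a difference of 0.19 (SE 0.16) with overlapping clones that became 0.028 as deposited and -0.051 with centred arrays. Its dimmer probe set 216234_s_at was at 0.0041 (SE 0.19). PRKACB, the beta form, had 7.80 and 7.68 against 7.80 and 7.72 on its brightest probe set 202741_at, a difference of -0.018 (SE 0.15). The dimmer 202742_s_at had 4.12 and 3.39 against 4.49 and 4.13, a difference of -0.56 (SE 0.27) with clones only 0.0084 apart and CD133+ arrays 0.73 apart. The third, 235780_at, was at -0.33 (SE 0.31) with overlapping clones. For 16 of all 22 member probe sets the 2 clones shifted the same way from replicate 1 to replicate 2, and what the equally numbered arrays share is not given in the labels.

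The other genes of the pathway were read from 8 lists of 124 genes, none of them a member, in a limma fit over 15820 genes, each represented by its brightest probe set. Of the 95 genes tested, 2 were higher and 3 lower in CD133+ cells at an adjusted p under 0.05, which is 5.26% against 3.74% of all genes (1.36% higher and 2.38% lower). The arrays of the clones did not overlap for 49.5% of the 95, against 51.6% of all genes. At an unadjusted p under 0.05 there were 21 of the 95, where 20.7% of all genes had one. Over all lists together these shares were near those of all genes.

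Upstream of the kinase 0 genes passed in limma, and an unadjusted p under 0.05 was reached by 2 receptors, 1 G protein subunit and 2 cyclases. Of 19 receptors that couple to the stimulatory G protein, 0 passed, with a median difference of 0.25 beside 0.058 over all genes. The 3 with the smallest p were GIPR, the receptor of the incretin GIP, at 0.56 (SE 0.24), VIPR2, a receptor of the secretion-inducing peptide VIP, at 0.49 (SE 0.21) and GLP1R, the receptor of GLP-1, at 0.55 (SE 0.26), with limma adjusted p of 0.229, 0.230 and 0.273. Averaged over their probe sets, VIPR2 was at 0.15 and GLP1R at 0.16. All 19 differences were above 0 after quantile normalization, where 58.5% of all genes were, and 18 of 19 were under either other scaling (deposited values or centred arrays). They began at 0.0020, for SCTR. Receptor signals were mostly low, with group means from 3.85 (GLP2R, CD133-) to 7.05 (PTGIR, CD133+), except ADORA2B at 8.86 in CD133+ and 8.83 in CD133- cells. Markers of leukocytes, fibroblasts and endothelium averaged 4.15 to 5.39 on these arrays. Whether genes at such levels lean higher in general was not tested. Because the receptor list was chosen with earlier results of these data known, the share above 0 is not evidence about the pathway. The arrays of the clones did not overlap for 8 of the 19, or 42.1%, against 51.6% of all genes. Of 7 G protein alpha subunits GNAI1, which inhibits adenylyl cyclase, came nearest at -0.94 (SE 0.24, limma adjusted p = 0.0739), with 5.54 and 5.52 in CD133+ against 6.75 and 6.20 in CD133- cells. Its adjusted p was 0.0455 without CD133- replicate 2, where the difference was -1.22, and 0.384 without CD133- replicate 1, where it was -0.67. It was 0.149 and 0.176 without CD133+ replicates 1 and 2. GNAO1 was at 0.29 and GNAL at 0.19 (0.049 with probe-set means), and GNAS, the stimulatory subunit itself, was at 0.034 (SE 0.093), a sign that turned with centred arrays (-0.072). Of 10 adenylyl cyclases, which make cyclic AMP, 0 passed, and the median was 0.18. ADCY1, ADCY2 and ADCY5 were at 0.61, 0.39 and 0.53, with limma adjusted p of 0.235, 0.220 and 0.249. Their signals were low, with means of 5.37, 4.24 and 4.66 in CD133+ and 4.76, 3.85 and 4.13 in CD133- cells. With probe-set means the differences of these genes were 0.28, 0.067 and 0.32, and 1 of 3 probe sets of ADCY2 had its sign. ADCY3 was at 0.25 (SE 0.21) and ADCY9 at -0.038 (SE 0.27).

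Among 12 phosphodiesterases that break down cyclic AMP, 2 passed as lower and 0 as higher in CD133+ cells, where 2.38% and 1.36% of all genes did. At an unadjusted p under 0.05 in limma there were 3 lower and 0 higher, where 20.7% of all genes had one in either direction. With a list chosen after earlier results of these data were known, these counts are not evidence about the pathway. PDE4D, a cyclic AMP-specific form, had 9.35 and 9.11 in CD133+ and 9.82 and 9.70 in CD133- cells. It fell by 0.53 (SE 0.12, limma adjusted p = 0.0493), and 6 of its 6 probe sets had this sign, with a mean over them of -0.96 (adjusted p = 0.0377). PDE8B, a high-affinity form, had 4.49 and 4.46 against 5.30 and 5.46 and fell by 0.90 (SE 0.20, limma adjusted p = 0.0455), with 2 of 3 probe sets of this sign. Both calls were marginal. That of PDE4D was lost without CD133+ replicate 2 (limma adjusted p = 0.105), CD133- replicate 1 (0.313) or CD133- replicate 2 (0.0938), and that of PDE8B without any one array (0.129 and 0.165 without CD133+ replicates 1 and 2, 0.128 and 0.10 without CD133- replicates 1 and 2). A fit without any one array has a group of 1, assumed to vary like the other group, and over the 4 such fits the differences ran from -0.65 to -0.41 for PDE4D and from -0.98 to -0.83 for PDE8B. In the values as deposited PDE4D had 0.0844 and PDE8B 0.0787, with centred arrays PDE4D had 0.0758, with no filter on level they had 0.0561 and 0.0571, and the mean over the probe sets of PDE8B was -0.40 (adjusted p = 0.194).

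**Figure D3:**
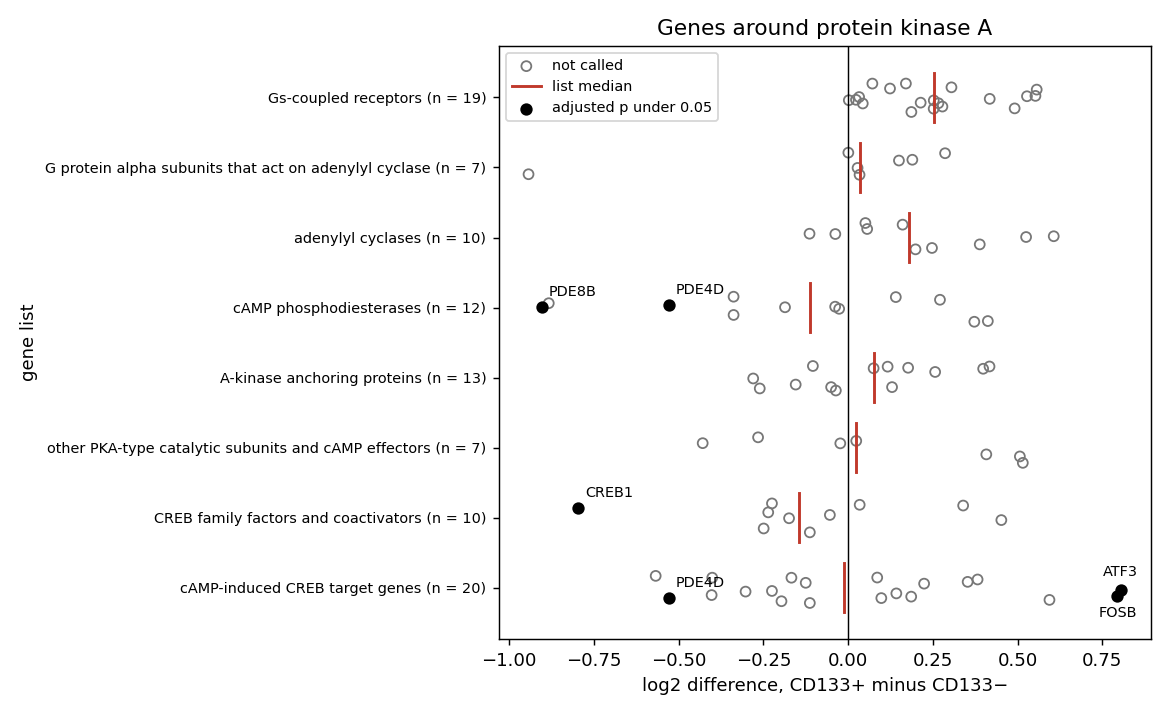
Log2 difference, CD133+ minus CD133- (x axis), of each tested gene in the 8 lists (rows, n the genes tested), with filled points for an adjusted p under 0.05 in limma, open points for the rest and red lines for list medians. CREB1, PDE4D and PDE8B are the called genes below 0 and FOSB and ATF3 those above 0, and PDE4D is in 2 lists.

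Of 13 A-kinase anchoring proteins, the scaffolds that place the kinase beside its substrates, 0 passed in limma and 2 had an unadjusted p under 0.05. AKAP13 was at 0.42 (SE 0.18), GSKIP at -0.28 (SE 0.12) and AKAP7 at 0.40 (SE 0.23), with limma adjusted p of 0.226, 0.225 and 0.359, and with probe-set means AKAP13 was at 0.12 and AKAP7 at 0.14. AKAP12, a scaffold at the plasma membrane, was at 0.12 (SE 0.071) with 5 of 5 probe sets of this sign, at 0.44 with their mean and at 0.022 with centred arrays. AKAP9, a scaffold of the Golgi and centrosome, was at 0.075 (SE 0.12) with 1 of 3, turning to -0.031 as deposited and -0.11 with centred arrays. Of 7 other catalytic subunits and cyclic AMP effectors 0 passed in limma and 1 had an unadjusted p under 0.05. PRKACG, a further catalytic subunit gene, was at 0.52 (SE 0.17, limma adjusted p = 0.150). Its signals were low, with 4.61 and 4.70 in CD133+ and 4.18 and 4.10 in CD133- cells. The pacemaker channel HCN3 was at 0.51 (limma adjusted p = 0.278) and POPDC3, a cyclic AMP-binding membrane protein, at -0.27 (0.414).

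Downstream, CREB1, the transcription factor that the catalytic subunits phosphorylate, was lower in CD133+ cells. Its brightest probe set had 7.72 and 7.94 in CD133+ and 8.65 and 8.61 in CD133- cells, and it fell by 0.80 (SE 0.14, limma adjusted p = 0.0215). None of the other 9 CREB family factors and coactivators passed. Of its 7 probe sets, 6 had this sign, but their mean was -0.45 (adjusted p = 0.310). The call was lost without CD133- replicate 1 (0.140) or CD133- replicate 2 (0.0630), fits with 1 array in a group, in which the difference was -0.77 and -0.82. Of 20 genes that cyclic AMP is known to induce through CREB, 2 were higher, 1 lower (PDE4D again) and 17 did not pass. An unadjusted p under 0.05 was reached by 9 of these 20, 5 higher and 4 lower, a larger share than the 20.7% of all genes. This list too was chosen with earlier results of these data known, and only the brightest probe set of each gene was counted. The share is therefore not evidence about the pathway. FOSB had 10.09 and 10.34 in CD133+ against 9.46 and 9.39 in CD133- cells and rose by 0.79 (SE 0.11, limma adjusted p = 0.0124). ATF3 had 11.61 and 11.20 against 10.71 and 10.49 and rose by 0.80 (SE 0.14, adjusted p = 0.0218). Both are also early genes of the response to growth factors and stress. FOSB had 0.0508 without CD133- replicate 1, and ATF3 had 0.0589 without CD133- replicate 2, 0.0585 with centred arrays and 0.267 with the mean of its probe sets.

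The pathway genes that passed in the lower direction sat among neighbours that were lower too. For each member and each called pathway gene the 20 nearest tested genes on each side were taken in RefSeq order, a choice made after the values were seen. Around CREB1 on chromosome 2, 32 of 40 neighbours were lower in CD133+ cells, with a median difference of -0.42 against -0.057 on the rest of the chromosome. Around PDE4D on chromosome 5, 36 of 40 were lower with a median of -0.64, against -0.0014 on the rest of the chromosome. Around PDE8B, further along the same chromosome, 34 of 40 were lower with a median of -0.37, against -0.0042 on the rest. Among the 40 neighbours, 12 of CREB1, 17 of PDE4D and 12 of PDE8B passed in the lower direction, where 2.38% of all genes did. In the higher direction 0 passed. Around FOSB on chromosome 19, 36 of 40 neighbours were higher in CD133+ cells. Their median was 0.28 against 0.15 on the rest of the chromosome, and 0 of them passed. Around ATF3 on chromosome 1, 15 of 40 were higher and 25 lower, with a median of -0.061. Of these 40, 2 passed in the higher direction, LAMB3 at 1.40 and G0S2 at 1.15, where 1.36% of all genes did, and 0 in the lower one. Whether the position of any of these genes has a part in their differences was not tested.

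**Figure D4:**
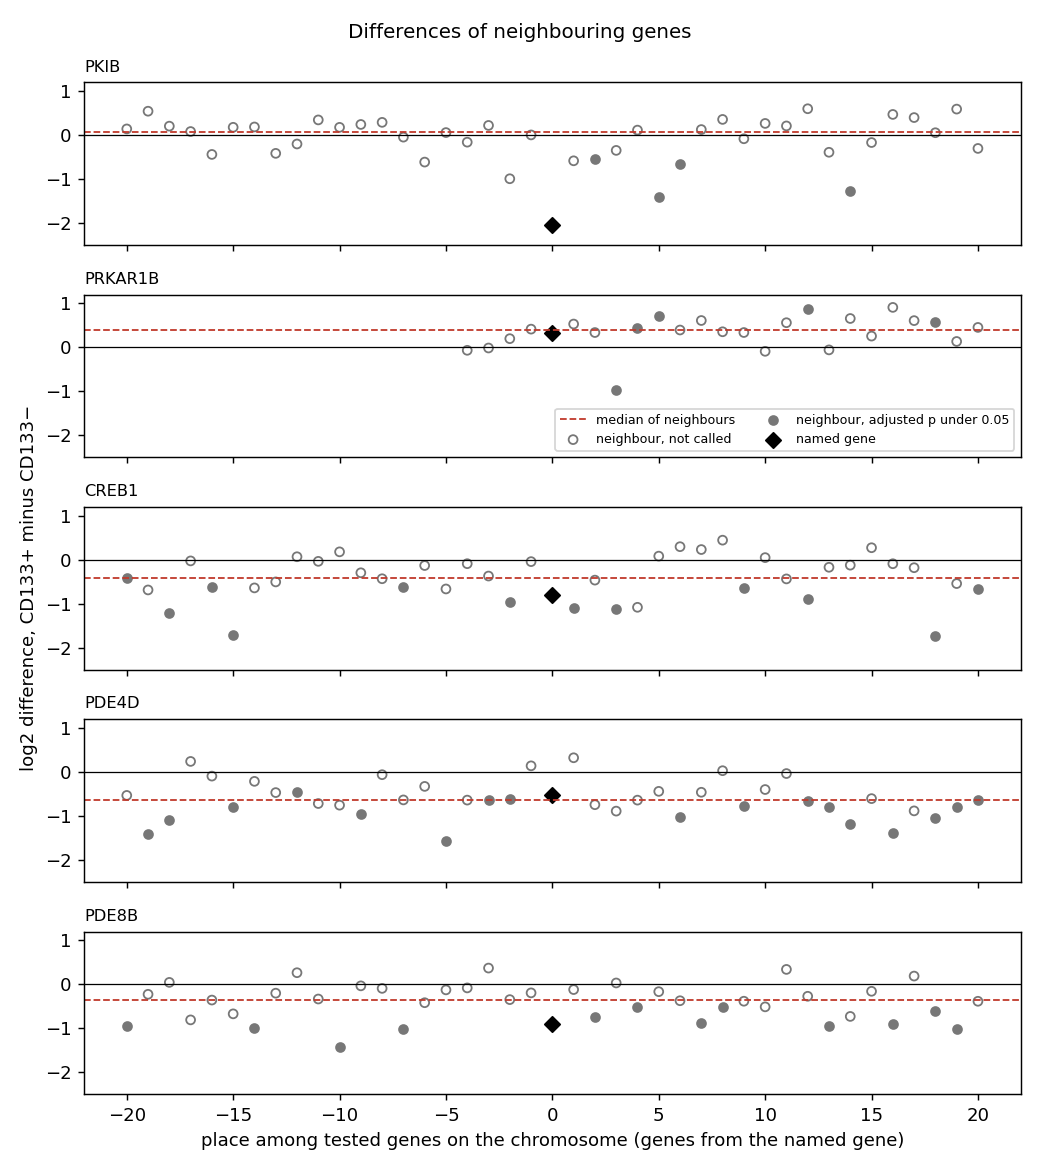
Log2 difference, CD133+ minus CD133- (y axis), of the named gene (diamond) and of up to 20 tested genes on each side in chromosome order (x axis, in genes), with filled circles for an adjusted p under 0.05 in limma and a dashed line for the median of the neighbours. That median is 0.069 around PKIB, 0.41 around PRKAR1B, -0.42 around CREB1, -0.64 around PDE4D and -0.37 around PDE8B.

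The 40 neighbours of PKIB had a median of 0.069, which turned to -0.076 with centred arrays, with 17 lower and 23 higher. Of these 40, 4 passed in the lower direction, where 2.38% of all genes did, and 0 in the higher one. Of the 5 nearest on each side, 6 of 10 were lower and 2 passed, TPD52L1 at -0.55 (SE 0.10, limma adjusted p = 0.0255) and HINT3 at -1.42 (SE 0.24, adjusted p = 0.0202). TBC1D32 was at -0.99 (SE 0.25, adjusted p = 0.0680) and SMPDL3A at -0.58 (SE 0.26, adjusted p = 0.248), and the other 6 (ASF1A, FAM184A, MAN1A1, SERINC1, HDDC2 and NCOA7) were between -0.35 and 0.22. PRKAR1B lies near the end of chromosome 7, with 4 tested genes before it. Of its 24 neighbours 19 were higher in CD133+ cells and the median was 0.41, against 0.13 on the rest of the chromosome, beside its own difference of 0.32. With centred arrays the neighbours' median was 0.27 and PRKAR1B was at 0.064. Of the nearest 9, SUN1 rose by 0.45 (SE 0.10, limma adjusted p = 0.0496) and GET4 by 0.72 (SE 0.13, adjusted p = 0.0237). PDGFA was at 0.42, DNAAF5 at 0.34, FAM20C at 0.20, LINC03014 at -0.066, LOC105375115 at -0.013 and PRKAR1B-AS1, which overlaps PRKAR1B, at 0.53. The table also lists the trypsinogen pseudogene PRSS3P2 there, at -0.96 (SE 0.12, adjusted p = 0.00999), but that position is in doubt. Without it 19 of 23 neighbours were higher, with a median of 0.42. Neighbours of the other 6 members tested had medians from -0.074 to 0.23.

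Over the 4 arrays, the 5 of 15819 genes whose values, centred on their own mean, lay nearest to those of PKIB were CSTA (Euclidean distance 0.13), SHROOM2 (0.25), IGFBP2 (0.29), RUNX2 (0.34) and APOBEC3G (0.36). Their differences were -2.03, -1.95, -2.01, -1.81 and -1.76. With 4 arrays in 2 groups, this likeness is little more than a difference of the same sign and size.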

How the data were processed

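The authors deposited 1 log2 signal per probe set and array, as the range of the values (2.52 to 14.57) shows. Per the submitters' processing notes they came from Affymetrix Expression Console, and its version, background correction and summarisation are not given in the sources used here. Array medians differed by 0.144, so the 4 arrays were quantile-normalized, which removes any difference in overall distribution. Genes were named through the platform annotation (41091 probe sets with 1 gene, 1801 with several, 11721 with none, 62 controls), and updated by gene ID to RefSeq GRCh38.p14, where 19738 of 19775 matched.

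The members and lists were chosen with earlier results of these data known. Member differences and SE came from limma 3.58.1 (R 4.3.3) over 54613 probe sets with no level filter. For pathway genes, limma with a variance trend ran on the brightest probe set of each gene without the lowest 20% by level (under 3.75), with Benjamini-Hochberg adjustment over 15820 genes, where 592 passed. Of the members, 8 of 9 passed that filter and PRKAR2B did not. Of the 124 listed genes 113 had a probe set of their own and 95 were tested. With 2 arrays per group an exact permutation test of 1 value cannot go below 0.333. On simulated data with the gene and array numbers of this comparison, 100% of log2 changes of 2, 55.2% of 1 and 7.46% of 0.5 were recovered, so small changes could be missed. Only 66 or 67 genes were changed at each size, and the noise of each array was drawn independently. In the real data 592 genes passed and replicate shifts correlated between the clones, so recovery there may differ. Named were all members, every called gene of a list or else the 3 with the smallest p, 8 genes fixed by name, the 5 nearest genes on each side of PKIB and PRKAR1B, and the 5 genes most like PKIB. Alternatives were other scaling, filters, variance models, probe-set means, the replicate number as a block and leaving out each array. Promoter windows were searched in Python 3.11.15.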

Additional observations from a re-analysis of the deposited data

How the results depend on the processing

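Of the 22 member probe sets, 13 kept the sign of their difference under all 6 alternatives tried on them (both other scalings and each array left out), 19 under both scalings and 14 without each array. The count of pathway genes called, 5 of 95, was 3 in the values as deposited, 3 with centred arrays, 3 with no filter on level, 2 with the mean of all probe sets, 0 in eBayes without trend (17 of all genes) and between 1 and 4 with 1 array left out, lowest without CD133- replicate 1. The count of all genes called, 592, was 250 with the mean of all probe sets, between 112 and 603 with 1 array left out, again lowest without CD133- replicate 1, and 351 without CD133- replicate 2. With the replicate number as a block, 3044 of all genes and 16 of the 95 pathway genes passed. The difference between replicates 1 and 2 correlated between the clones across genes (r = 0.43), but the labels do not say that equal numbers share anything, and this block leaves 1 residual degree of freedom per gene. The share of called genes that were higher was 36.3%, 21.1% as deposited and 11.4% with centred arrays. Named genes that did not pass and changed sign were GNAS (-0.072 with centred arrays, -0.019 with probe-set means, -0.086 without CD133+ replicate 1, -0.029 without CD133- replicate 2, and 0.15, the highest, without CD133+ replicate 2), AKAP9 (-0.031 as deposited, -0.11 with centred arrays, -0.064 with probe-set means), ADCY3 (-0.22 with probe-set means) and ADCY9 (from -0.40 without CD133+ replicate 1 to 0.32 without CD133+ replicate 2, and 0.0022 without CD133- replicate 1). The cause of these changes was not tested. The arrays give no detection calls, so signals near the lowest levels, such as those of PRKAR2B, have no known distance from background.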
